A study of Mus musculus with 30 samples.

Results

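The 7 mouse genes that encode inhibitors of cyclin-dependent kinases were examined: Cdkn1a, Cdkn1b, Cdkn1c, Cdkn2a, Cdkn2b, Cdkn2c and Cdkn2d. They were chosen by name, and all 7 are listed among the 19468 genes of the kidney table and the 19685 genes of the pancreas table. The libraries are of poly(A) RNA from C57BL/6 mouse tissue, 15 of kidney and 15 of pancreas, with 5 from each genotype. The i4F mice carry an inducible transgene for 4 reprogramming factors: Pou5f1 (Oct4), Sox2, Klf4 and Myc. In the i4F Ink4a/Arf KO mice the Ink4a/Arf locus, which is Cdkn2a, is deleted as well. The third kidney group is labelled i4F p53 KO, a genotype without the transcription factor p53 (gene Trp53). For the third group of pancreas libraries the label is p53 KO alone, and i4F is not named in it. All mice were given doxycycline at 0.2 mg/ml in the drinking water for 7 days, the drug that switches the transgene on, so every comparison is between treated mice and no untreated group was analysed here. The series text gives over 24 M mapped reads per sample, and RNA integrity numbers ran from 7.4 to 9.4 per the labels. Ages are not given in the sources used here, nor is the promoter that drives the transgene.

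Cyclin-dependent kinases carry a cell from one phase of its division cycle to the next, and the CDK inhibitors stop them. The CIP/KIP members Cdkn1a (p21), Cdkn1b (p27) and Cdkn1c (p57) bind complexes of a cyclin with its kinase. The INK4 members Cdkn2a (p16), Cdkn2b (p15), Cdkn2c (p18) and Cdkn2d (p19) bind CDK4 and CDK6, which keeps the retinoblastoma protein active and the E2F factors restrained. Cdkn1a is a classic target of p53. Cdkn2a has a separate upstream start that gives Arf, a protein unrelated to p16 that stabilises p53, and Cdkn2a and Cdkn2b are widely used as marks of senescent cells.

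Cdkn2a and Cdkn2b are neighbours, and the pancreas results below turn on them. In the mouse build GRCm38 (annotation GENCODE M21) Cdkn2a lies on the minus strand at chr4:89274471-89294653 and Cdkn2b on the same strand at chr4:89306299-89311039, with 11645 bases between them. The 2 annotated Cdkn2a transcripts start 12461 bases apart, and the deposited value of the gene does not separate Ink4a from Arf. The sequences before the 3 starts are shown because they are the windows from which these transcripts begin. They come from the promoter table of RefSeq (GRCm38.p6), run 5′ to 3′ on the gene's strand, end just before the annotated transcript, and carry motif matches in capitals. The first is chr4:89282193-89282442, the second chr4:89294654-89294869 and the third chr4:89311040-89311282.
Cdkn2a downstream start (Ink4a): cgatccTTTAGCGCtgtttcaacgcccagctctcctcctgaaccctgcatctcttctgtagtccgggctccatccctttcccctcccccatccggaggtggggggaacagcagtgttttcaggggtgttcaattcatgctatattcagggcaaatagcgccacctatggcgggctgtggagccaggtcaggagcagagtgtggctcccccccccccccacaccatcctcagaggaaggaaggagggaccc
Cdkn2a upstream start (Arf): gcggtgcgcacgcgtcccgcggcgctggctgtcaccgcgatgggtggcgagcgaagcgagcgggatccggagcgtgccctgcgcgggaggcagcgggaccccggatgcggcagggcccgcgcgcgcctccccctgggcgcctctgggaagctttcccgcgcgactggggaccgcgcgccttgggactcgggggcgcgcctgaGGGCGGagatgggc
Cdkn2b start: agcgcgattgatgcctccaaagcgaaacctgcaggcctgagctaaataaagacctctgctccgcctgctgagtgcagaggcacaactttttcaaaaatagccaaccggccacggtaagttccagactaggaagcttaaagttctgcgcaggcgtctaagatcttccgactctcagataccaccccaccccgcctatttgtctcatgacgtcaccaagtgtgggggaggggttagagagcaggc

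Motifs were searched on both strands of the 250 bases before each RefSeq start: GGGCGG (the GC box), CACGTG (an E-box), TTTNGCGC (a form of the E2F site) and TATAAA (the TATA box). The Ink4a start holds TTTAGCGC, a match to TTTNGCGC, which 1.13% of 32851 promoters hold. The Arf start holds 2 matches to GGGCGG, of which 1 lies in the printed stretch, and 32.7% of promoters hold at least 1. The Cdkn2b window holds none of the 4 motifs. The Arf window was the richest of the 3 in G and C at 78.4%, against 60% at the Ink4a start, 53.6% at Cdkn2b and a median of 52.4% over all promoters. RefSeq promoters matched 6 of the 7 genes. The other members lie at chr17:29090976-29100727 (Cdkn1a, plus strand), chr6:134920401-134925513 (Cdkn1b, plus), chr7:143458339-143461050 (Cdkn1c, minus), chr4:109660876-109667189 (Cdkn2c, minus) and chr9:21288410-21291407 (Cdkn2d, minus). Cdkn1a and Cdkn1c each overlap 1 annotated gene on the opposite strand, and whether reads were assigned by strand is not given in the sources used here.

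The targeted genes were checked first. Kidney Trp53 was 7.04 ± 2.12 FPKM (SD, n = 5) in i4F p53 KO and 16.4 ± 2.2 in i4F, a difference of -1.14 in log2(FPKM + 1) with no overlap (limma adjusted p = 0.00547). In the pancreas Trp53 went against the label: 15.6 ± 7.12 FPKM in the libraries labelled p53 KO and 3.4 ± 2.14 in i4F. After the scaling described below the difference was 0.16 (adjusted p = 0.388), so it was not lower on either scale, and a value per gene does not show which exons were read. The Ink4a/Arf deletion could not be checked, because Cdkn2a was at or near 0 in the i4F libraries of both tissues too. FPKM are reads per length relative to a library's total, and the pancreas libraries differed in that total's makeup. Clps, a colipase made by acinar cells, stood at 60500 to 78400 FPKM in i4F and at 121 to 41700 in the libraries labelled p53 KO, and genes at 1 FPKM or more numbered 6596 to 9852 and 10507 to 13194. Pancreas results are therefore given on the deposited values and again after scaling by the median of ratios, where a library is divided by its typical ratio to the rest. This scaling takes the typical gene as unchanged between libraries, which was not tested. The size factors were 0.455 to 0.979 for i4F, 0.499 to 0.641 for i4F Ink4a/Arf KO and 1.33 to 3.85 for the libraries labelled p53 KO. In kidney they ran from 0.91 to 1.15.

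In kidney Cdkn1b was usually the highest of the 7 genes and Cdkn2a always the lowest. Cdkn1b led in 11 of 15 libraries, with a range of 12.4 to 17 FPKM, and stood above every INK4 member in all 15. Cdkn1c ran from 6.03 to 20.7 FPKM with a median of 9.74, and Cdkn1a from 2.49 to 22 with a median of 6.59. Their ranges overlap each other and those of Cdkn2c (5.73 to 10.4) and Cdkn2d (3.9 to 8.54), so the order of these 4 is not fixed from library to library. Cdkn2b followed at 0.17 to 4.86 FPKM, below Cdkn2c and Cdkn2d in every group mean. Cdkn2a was the lowest in all 15 libraries, at no more than 0.261 FPKM.

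In pancreas Cdkn1a led in all 15 libraries, from 2.18 to 161 FPKM. In i4F and i4F Ink4a/Arf KO Cdkn1b came next at 1.76 to 4.52 FPKM. Cdkn1c, Cdkn2c and Cdkn2d overlapped below it: their i4F means were 0.813, 1.34 and 0.952 FPKM, and their i4F Ink4a/Arf KO means 0.695, 0.762 and 1.08. Cdkn2b averaged 0.263 and 0.328 FPKM in these groups. In the libraries labelled p53 KO the order below Cdkn1a changed, with Cdkn1b (11.4 ± 7.06 FPKM, SD, n = 5), Cdkn2d (11.4 ± 4.85) and Cdkn2b (10.2 ± 7.38) at like levels, then Cdkn2a at 6.58 ± 5.82, Cdkn2c at 5.63 ± 2.98 and Cdkn1c at 3.35 ± 2.47. The spreads of neighbours in that order overlap.

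**Figure D1:**
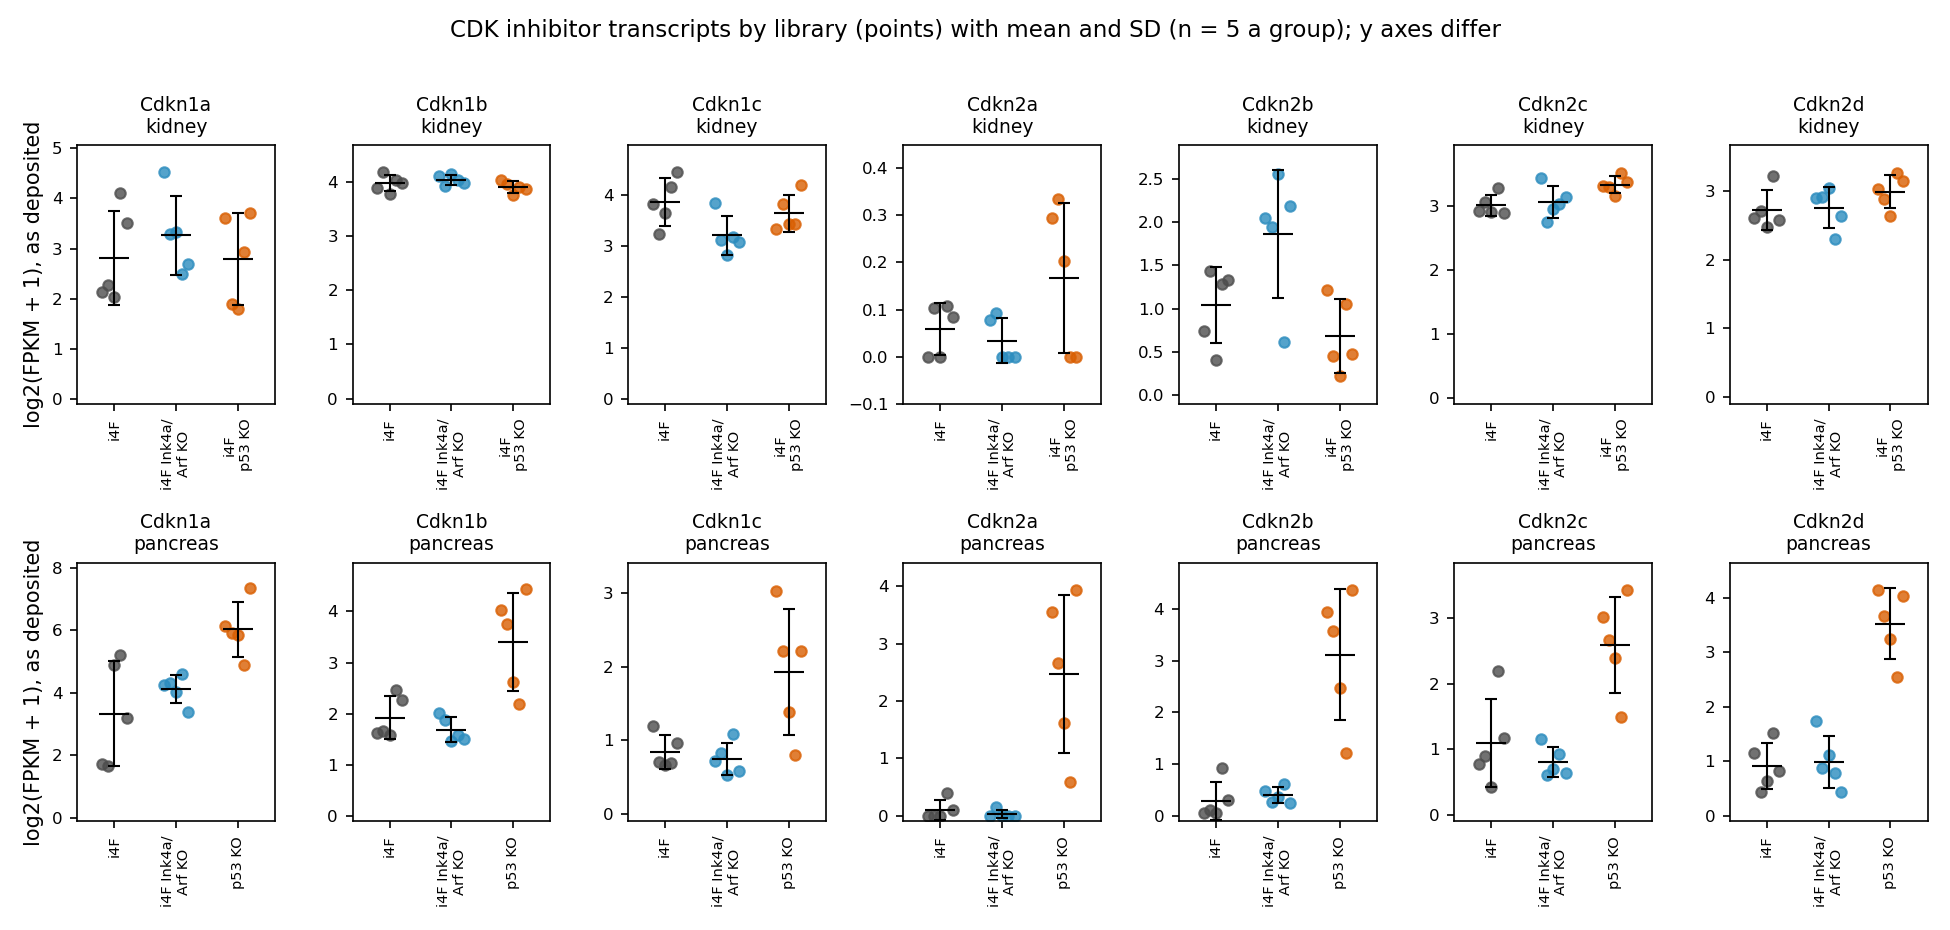
Level of each of the 7 CDK inhibitor genes in every library, as log2(FPKM + 1) of the deposited values, by tissue and genotype; points are libraries, and bars give the mean and SD of 5. In kidney the genotypes overlap for all 7 genes, with Cdkn1b between 12.4 and 17 FPKM, and in pancreas the libraries labelled p53 KO reach the highest values of all 7 genes.

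Cdkn1a (p21) varied most among the abundant members of the kidney and did not separate the genotypes. The i4F libraries held 3.37, 3.8, 3.11, 16.3 and 10.4 FPKM. The i4F Ink4a/Arf KO libraries held 22, 8.73, 9.03, 4.63 and 5.44 FPKM, and the i4F p53 KO libraries 11.2, 2.72, 2.49, 6.59 and 12.1. High and low libraries occurred in all 3 groups, and the groups overlap. The difference from i4F was -0.02 in i4F p53 KO (95% interval -1.11 to 1.07, limma adjusted p = 0.992) and 0.45 in i4F Ink4a/Arf KO (SE 0.51, adjusted p = 0.997). With these intervals, changes of up to about 1 in log2 units in either direction could not be seen for Cdkn1a in i4F p53 KO. Cdkn1b (p27) was the most even, with a coefficient of variation of 6.68 to 10.8% within groups. The i4F mean was 14.7 ± 1.59 FPKM, the i4F Ink4a/Arf KO mean 15.4 ± 1.03 and the i4F p53 KO mean 14 ± 1.07, with differences from i4F of 0.07 and -0.06.

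Cdkn1c (p57) was lower in most i4F Ink4a/Arf KO kidneys without passing the test. Its levels were 13.3, 7.59, 6.03, 8.03 and 7.4 FPKM there, 13.1, 8.37, 11.4, 16.7 and 20.7 in i4F, and 9.03, 13, 9.74, 9.71 and 17.3 in i4F p53 KO. In i4F Ink4a/Arf KO 4 libraries lay below every i4F library, while replicate 1 lay inside the i4F range. The difference was -0.65 (SE 0.238, 95% interval -1.16 to -0.14), with an unadjusted p of 0.0156 and a limma adjusted p of 0.997.

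Cdkn2b (p15), the neighbour of the deleted locus, showed the widest contrast of the kidney members. It measured 0.671, 1.71, 0.332, 1.44 and 1.52 FPKM in i4F and 3.13, 2.84, 4.86, 0.53 and 3.54 in i4F Ink4a/Arf KO. In i4F p53 KO it measured 1.32, 0.365, 0.17, 1.07 and 0.393 FPKM. Thus 4 of 5 i4F Ink4a/Arf KO libraries stood above every other kidney library, and replicate 4 lay among the rest. Against i4F the difference was 0.82 (SE 0.324, 95% interval 0.13 to 1.52), with an unadjusted p of 0.0229 and an adjusted p of 0.997. Between the knockouts, i4F p53 KO was lower by a log2 value of -1.18 (SE 0.324, 95% interval -1.88 to -0.49, adjusted p = 0.118). Without i4F Ink4a/Arf KO replicate 4 that difference was -1.5 and passed the threshold (adjusted p = 0.0293). Against i4F, i4F p53 KO differed by -0.36 (adjusted p = 0.67).

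Cdkn2c (p18) stood at 8.91, 8.75, 7.89, 10.4 and 9.37 FPKM in i4F p53 KO and at 6.58, 7.28, 6.44, 8.69 and 6.38 in i4F. In i4F p53 KO 4 of 5 libraries lay above every i4F library, and the difference of 0.32 (SE 0.121, unadjusted p = 0.0179) had an adjusted p of 0.263. Cdkn2d (p19) averaged 5.68 ± 1.49, 5.84 ± 1.31 and 7.01 ± 1.29 FPKM in i4F, Ink4a/Arf KO and p53 KO kidneys, and its adjusted p was 0.508 or above against i4F. Cdkn2a was at 0.226, 0.261, 0.151, 0 and 0 FPKM in i4F p53 KO. The i4F kidneys had 0, 0.0746, 0, 0.0782 and 0.0608, and i4F Ink4a/Arf KO had 0.0563, 0.0662, 0, 0 and 0. At these levels an entry of 0 says only that the gene is listed at 0.

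No CDK inhibitor passed the adjusted threshold in any of the 3 kidney comparisons, of the 6 tested in each (limma, 12431 genes). The background was as sparse: 0% of all genes tested passed for i4F Ink4a/Arf KO against i4F, 0.257% for i4F p53 KO against i4F and 0.265% for i4F p53 KO against i4F Ink4a/Arf KO. At an unadjusted p under 0.05 there were 398, 1641 and 2232 genes, and 2, 1 and 2 of the 6 members. Pancreatic transcripts also reached some kidney libraries, with Clps at 191 to 220 FPKM in 3 i4F p53 KO libraries and at 216 in 1 i4F library. Without these 4 libraries no member passed in any comparison, and the Cdkn1a difference in i4F p53 KO was 1.03 (adjusted p = 0.381). The summed neutrophil markers were 59.1 to 169 FPKM in i4F p53 KO kidneys and 13.8 to 24 in i4F, and their part in the values above was not tested.

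In the pancreas, none of the 6 tested members passed between i4F Ink4a/Arf KO and i4F, and none had an unadjusted p under 0.05 (limma). Cdkn1a was at 2.34, 2.18, 28.3, 35.9 and 8.1 FPKM in i4F and at 18.1, 19.1, 15.4, 23.1 and 9.51 in i4F Ink4a/Arf KO. The i4F libraries fell on both sides of the narrower i4F Ink4a/Arf KO range, and the difference of 0.79 (SE 0.603) had an adjusted p of 1, or 0.968 after scaling. The other 5 tested members differed by -0.29 to 0.11 on the deposited values, all with an adjusted p of 1. Among all 10781 genes 0% passed, and 36 had an unadjusted p under 0.05 (516 after scaling). Cdkn2a was listed at 0 in 3 i4F libraries and at 0.318 and 0.0684 FPKM in the others, and at 0 in 4 i4F Ink4a/Arf KO libraries and 0.112 in the other.

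The libraries labelled p53 KO had higher deposited values of every member than i4F. Cdkn2b stood at 14.3, 10.9, 4.58, 1.33 and 19.7 FPKM there and at 0.0442, 0.089, 0.048, 0.897 and 0.238 in i4F, without overlap. Cdkn2d stood at 16.7, 11.6, 8.48, 4.85 and 15.3 FPKM against 1.21, 0.349, 0.556, 1.87 and 0.778, again without overlap. Cdkn1a stood at 69.5, 59.1, 56.7, 28.6 and 161 FPKM, with 4 of 5 libraries above every i4F library. In limma the differences were 2.61 for Cdkn2d (SE 0.314, adjusted p = 1.28e-06) and 2.69 for Cdkn1a (SE 0.603, adjusted p = 0.000423). Cdkn2c rose by 1.51, Cdkn1b by 1.48 and Cdkn1c by 1.08, with adjusted p-values of 0.000436, 0.000784 and 0.00275.

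All 6 tested members thus passed as higher, but so did 91.2% of all genes tested, and 73.0% of genes did not overlap between these groups. The filter of 1 FPKM in 5 libraries bears on these calls, since 4 members passed it only with the help of the libraries labelled p53 KO. Outside that group 0 libraries reached 1 FPKM of Cdkn2b, 2 of Cdkn1c, 3 of Cdkn2c and 4 of Cdkn2d. Cdkn2b in particular had to differ to be tested, and its difference was therefore taken from a fit with no filter over 19679 genes, 2.82 against i4F (SE 0.461, adjusted p = 8.86e-05). The shares given here are of the genes past the filter, and the share for that fit is not given. Against i4F Ink4a/Arf KO, a comparison that shares the libraries labelled p53 KO, the deposited differences were 2.71 for Cdkn2b, 2.53 for Cdkn2d, 1.9 for Cdkn1a, 1.79 for Cdkn2c, 1.71 for Cdkn1b and 1.18 for Cdkn1c. All 6 passed there too (adjusted p of at most 0.0063), where 91.7% of genes passed as higher and 85.6% did not overlap. The median over all genes was 1.58 against i4F and 1.66 against i4F Ink4a/Arf KO.

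After scaling and with no filter, Cdkn2b and Cdkn2d rose in the libraries labelled p53 KO, as did Cdkn2a, described below, and the other 4 members did not pass. Scaled Cdkn2b was 3.72, 3.3, 2.11, 1 and 5.32 FPKM there and 0.093, 0.196, 0.0738, 0.917 and 0.304 in i4F. Replicate 4 labelled p53 KO was the lowest of its group, just above the highest i4F library. With no filter the difference was 1.57 (SE 0.26, limma adjusted p = 0.000252), and 1.32 against i4F Ink4a/Arf KO (adjusted p = 0.000877). Scaled Cdkn2d was 4.33, 3.53, 3.91, 3.66 and 4.13 FPKM, an even level in libraries whose deposited values ran from 4.85 to 16.7. In i4F it was 2.55, 0.768, 0.854, 1.91 and 0.992, and in i4F Ink4a/Arf KO 3.63, 1.31, 1.99, 1.13 and 0.725. Only i4F Ink4a/Arf KO replicate 1 came within the range labelled p53 KO. The Cdkn2d difference was 1.08 against i4F (SE 0.239, 95% interval 0.57 to 1.59, adjusted p = 0.00107, or 0.00272 with no filter) and 0.92 against i4F Ink4a/Arf KO (adjusted p = 0.00323, or 0.00731 with no filter). Beside these calls, 26.0% of genes passed as higher against i4F and 27.7% against i4F Ink4a/Arf KO with no filter. With the filter the shares were 33.7% and 34.9%, and 22.9% and 26.9% of genes did not overlap.

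The CIP/KIP members lost their calls under scaling. Scaled Cdkn1a was 18.1, 17.9, 26.2, 21.6 and 43.4 FPKM in the libraries labelled p53 KO and 4.94, 4.8, 43.5, 36.7 and 10.3 in i4F. The i4F libraries lay on both sides of the group labelled p53 KO, and the difference of 0.78 had a 95% interval of -0.3 to 1.87 (adjusted p = 0.187). Without i4F replicate 3 it was 1.19 and passed (adjusted p = 0.0346, or 0.0608 with no filter). Against i4F Ink4a/Arf KO scaled Cdkn1a differed by -0.18 (adjusted p = 0.762). Cdkn1b had scaled means of 3.67 ± 1.25 FPKM in the libraries labelled p53 KO and 4.33 ± 0.743 in i4F, a difference of -0.22 (adjusted p = 0.266), and -0.05 against i4F Ink4a/Arf KO. Cdkn1c differed by -0.18 and -0.08, so both genes turned from a call of higher to a value below 0. Cdkn2c differed by 0.1 against i4F and 0.35 against i4F Ink4a/Arf KO (adjusted p = 0.703 and 0.176).

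**Figure D2:**
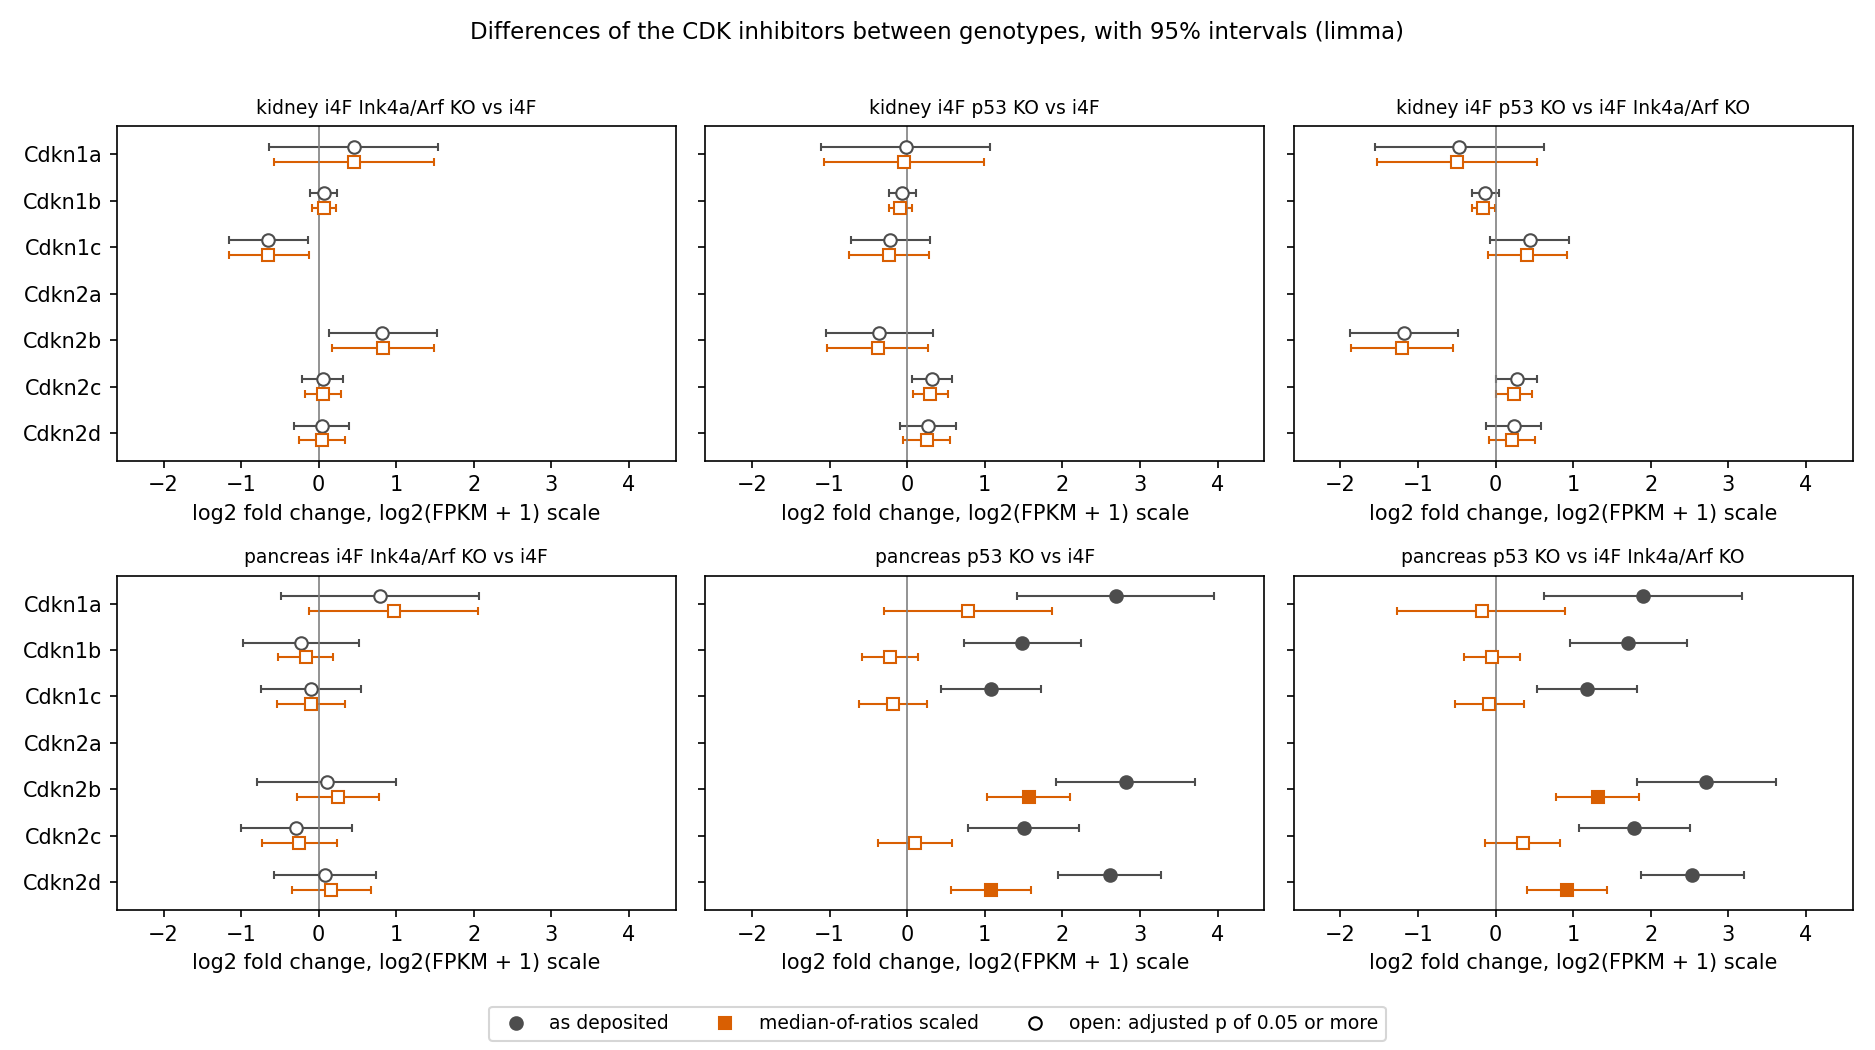
Difference in log2(FPKM + 1) with its 95% interval for the CDK inhibitors in 6 genotype comparisons, from deposited values (circles) and after median-of-ratios scaling (squares); open symbols have an adjusted p of 0.05 or above, Cdkn2a was below the filter in both tissues, and Cdkn2b passed it in pancreas through the libraries labelled p53 KO alone. Cdkn1c, Cdkn2c and Cdkn2d passed the pancreas filter only with the help of those libraries. In the pancreas comparisons with the libraries labelled p53 KO, Cdkn2b and Cdkn2d stay above 0 under scaling, at 1.57 and 1.08 against i4F, while Cdkn1b goes from 1.48 to -0.22.

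Cdkn2a (p16 and Arf) was below the filter in both tissues and was tested by itself. In the libraries labelled p53 KO it stood at 10.7, 5.33, 2.07, 0.496 and 14.3 FPKM, or 2.78, 1.61, 0.955, 0.374 and 3.86 after scaling. All 5 lay above the highest i4F library (0.318 FPKM) and the highest i4F Ink4a/Arf KO library (0.112 FPKM) on the deposited values. Among the genes past the filter, 73.0% and 85.6% also lay higher without overlap in these 2 comparisons, or 22.9% and 26.9% after scaling. The mean log2(FPKM + 1) was 2.47 there and 0.1 in i4F, a difference of 2.37, or 1.3 after scaling. Against i4F Ink4a/Arf KO it was 2.44, or 1.36 after scaling. Each of these comparisons had an exact two-sided permutation p of 0.00794, the smallest that the 252 arrangements of 5 against 5 allow. In a limma fit with no filter on low values the adjusted p was 0.000448 against i4F (0.00106 scaled) and 0.000328 against i4F Ink4a/Arf KO (0.000732 scaled). Scaled and with no filter, 26.0% and 27.7% of all genes passed as higher. On the deposited values 91.2% and 91.7% of the genes past the filter did. The order of the 5 libraries on the deposited values, replicate 5 highest and then 1, 2, 3 and 4, was that of Cdkn1a, Cdkn1b, Cdkn2b and Cdkn2c as well. After scaling Cdkn2a and Cdkn2b kept that order, and the other 5 genes each had a different one.

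The makeup of the tissue moved with these values. Summed acinar markers in the libraries labelled p53 KO were 45800, 101000, 238000, 386000 and 5360 FPKM for replicates 1 to 5, against 334000 to 496000 in i4F. The acinar genes Ctrb1, Cela2a and Pnlip were listed at 0 in all 5 i4F libraries and add nothing to their sums, while none of the list was at 0 in all 5 libraries labelled p53 KO. Replicate 4, with the highest acinar sum, had the lowest deposited value of all 7 CDK inhibitors, and replicate 5, with the lowest, had the highest of 5 of them. After scaling both still held for Cdkn2a, Cdkn2b and Cdkn2c. After scaling, the summed fibroblast markers were 878, 1270, 697, 406 and 2040 FPKM in replicates 1 to 5 against 114 to 256 in i4F, and 7 of 8 rose. Scaled macrophage markers were 678, 758, 526, 372 and 731 FPKM against 69.7 to 377, and 8 of 8 rose. Scaled duct markers summed to 442 to 683 FPKM against 159 to 231, with 3 of 6 higher and 2 lower, while endothelial markers summed to 15.2 to 23.6 against 20.6 to 31.7. Neutrophil markers were at 1160 scaled FPKM in replicate 1 and at 94.1 or less in the other 4. They ran from 2.96 to 227 in i4F and from 3.27 to 563 in i4F Ink4a/Arf KO. In bulk RNA, fewer cells of a type and less RNA per cell cannot be told apart, and the part of these cell types in the CDK inhibitor values was not tested.

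**Figure D3:**
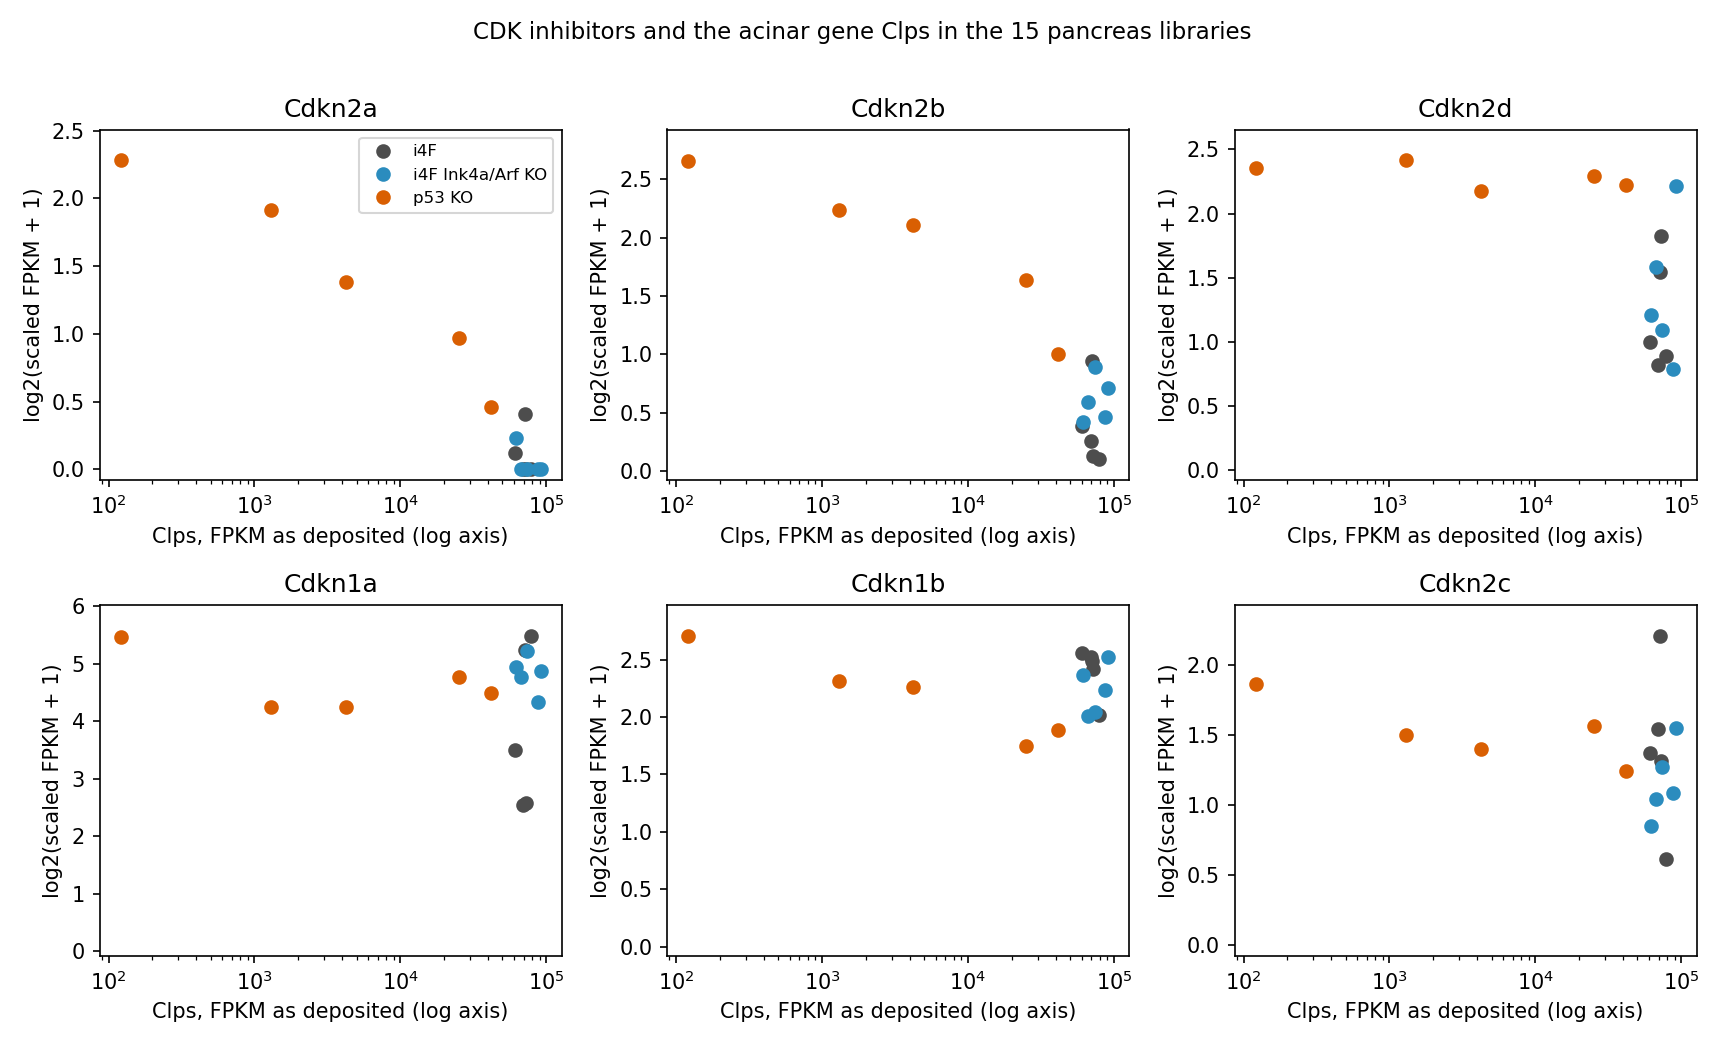
Scaled level, as log2(FPKM + 1), of 6 CDK inhibitors against the deposited level of the acinar gene Clps (log axis, FPKM) in the 15 pancreas libraries, colored by genotype. The libraries labelled p53 KO spread from 121 to 41700 FPKM of Clps, their Cdkn2a and Cdkn2b are lowest where Clps is highest, and their scaled Cdkn2d stays between 3.53 and 4.33 FPKM.

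With the acinar marker genes left out of the totals and the rest rescaled, 69.8% of all genes passed as higher against i4F, and so did 4 of 6 tested members: Cdkn2b (2.32), Cdkn2d (1.95), Cdkn1a (1.82) and Cdkn2c (0.88), with adjusted p-values of 0.000113, 6.56e-05, 0.0117 and 0.0239. Cdkn1b and Cdkn1c then had an adjusted p of 0.067 and 0.0943. This setting was chosen after the data had been seen. It kept the filter, which Cdkn2b passed through the libraries labelled p53 KO alone. Cdkn1c, Cdkn2c and Cdkn2d passed it only with the help of those libraries. No support is drawn from the p-values of these genes here. Cdkn2d was called against i4F on all 3 scales with the filter kept. With no filter, its limma adjusted p was 1.23e-05 on the deposited values and 0.00272 after scaling. The scale with acinar markers left out was not fitted with no filter. The calls for Cdkn1a, Cdkn1b, Cdkn1c and Cdkn2c depended on the scale.

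The effect of the p53 KO label was compared between the tissues by an interaction over 30 libraries and 10143 genes. Because the pancreas label does not name i4F, the 2 contrasts need not be of the same genotypes, and mice may be shared between tissues. On the deposited values all 6 tested members had a larger difference in the pancreas, by 3.18 for Cdkn2b, 2.71 for Cdkn1a, 2.34 for Cdkn2d, 1.55 for Cdkn1b, 1.3 for Cdkn1c and 1.18 for Cdkn2c, where 90.7% of genes passed in that direction and the median of all genes was 1.55. After scaling, 23.0% of genes passed and 2 members did: Cdkn2b at 1.94 (SE 0.407, adjusted p = 0.000388) and Cdkn2d at 0.83 (SE 0.286, adjusted p = 0.0192). Scaled Cdkn1a also differed by 0.83, with an adjusted p of 0.361. With no filter after scaling, 17.3% of 18910 genes passed, and the adjusted p was 0.000714 for Cdkn2b and 0.03 for Cdkn2d. The effect of Ink4a/Arf KO differed between tissues for none of the members and for 0% of all genes (limma, 52 genes at an unadjusted p under 0.05).

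The genes around the inhibitors were counted from lists of CDKs and cyclins, RB and E2F genes, regulators of the inhibitors, p53 targets, proliferation genes and secreted senescence factors. In the pancreas libraries labelled p53 KO, scaled, all 16 tested proliferation genes rose against i4F, with a median of 1.86 beside 0.02 over all genes. The scaling itself brings the median of all genes close to no change. Over all genes tested 33.7% rose and 32.3% fell in this comparison, and 34.9% rose and 33.0% fell against i4F Ink4a/Arf KO. The lists were counted with the filter only, which low genes could pass through the libraries labelled p53 KO. Deposited Mki67, a proliferation gene, was at most 0.446 FPKM in i4F and had a median of 0.0586 in i4F Ink4a/Arf KO (highest 1.7). In the libraries labelled p53 KO it was at least 2.76. The list counts thus depend in part on the group where such genes are high. The mitotic kinase gene Cdk1, a main partner of the mitotic cyclins, was at 5.6 ± 0.814 FPKM against 0.357 ± 0.219, a difference of 2.29 (limma adjusted p = 6.69e-08). Ccnb1, the mitotic cyclin B1, differed by 2.69, and Ccna2, the S-phase cyclin A2, by 2.19. The mitotic regulators Plk1 and Cdc20 differed by 2.41 and 2.8. Of 15 CDK and cyclin genes 9 rose and 3 fell, with a median of 0.39. Of 14 RB and E2F genes 7 rose and 3 fell, among them E2f3 (0.73) and Tfdp2, an E2F partner (-1.24).

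Of 23 tested regulators of the inhibitors 8 rose and 4 fell, a share of risers close to that of all genes. Tgfb1, the ligand known to induce Cdkn2b, was at 8.49 scaled FPKM against 2.41, a difference of 1.52 (adjusted p = 1.52e-05). Skp2, which marks p27 for degradation, rose by 0.62, and Cbx7, a Polycomb protein known to repress Cdkn2a, fell by 1.24 (adjusted p = 1.77e-05). Foxo4, of the FOXO factors that activate Cdkn1b, fell by 0.91. Of 16 secreted senescence factors 13 rose and 2 fell, with Timp1, an inhibitor of matrix proteases, at 134 scaled FPKM against 1.35. Fibroblasts and macrophages also make many of these factors.

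Among 21 tested p53 targets 4 rose and 8 fell in the same comparison, with a median of -0.24, and the share that fell was near that of all genes. Ccng1 fell by 1.22, Mgmt by 1.57 and Sesn1, a stress-induced sestrin, by 1.63 (adjusted p of 5.42e-06, 9.54e-06 and 2.82e-05), while Plk3 rose by 1.31. Cdkn1a, itself a p53 target and not counted here, had the value of 0.78 given above. Against i4F Ink4a/Arf KO, which shares the libraries labelled p53 KO, 16 of 16 proliferation genes rose, as did 13 of 16 secreted factors, and 4 p53 targets rose and 10 fell. On the deposited values no gene of these 6 lists fell against i4F.

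**Figure D4:**
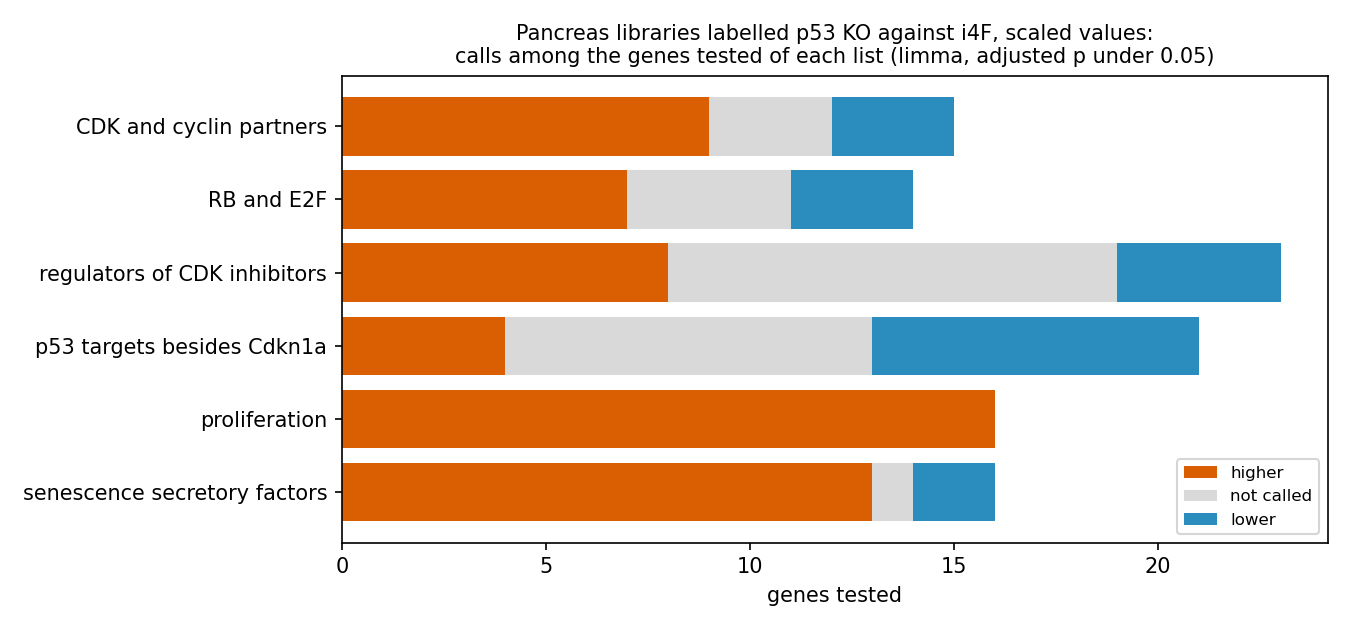
Number of tested genes in 6 lists around the CDK inhibitors that were called higher, not called or called lower in the pancreas libraries labelled p53 KO against i4F after scaling. All 16 tested proliferation genes were higher, and the p53 targets had 4 higher and 8 lower of 21. Genes were tested after the filter, which low genes could pass through the libraries labelled p53 KO.

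In kidney the same lists held few calls. Against i4F, i4F p53 KO had 3 lower p53 targets of 22: Ccng1 (-1.13, SE 0.126, limma adjusted p = 0.00109), Mgmt (-1.25, adjusted p = 0.00519) and Plk2 (-0.65, adjusted p = 0.0227). Cdkn1a did not join them, at -0.02. Among the regulators only Trp53 passed, and no gene of the other 4 lists did. Against i4F Ink4a/Arf KO 5 p53 targets were lower, with Ccng1 at -1.53 and Mgmt at -1.29. For i4F Ink4a/Arf KO against i4F no gene of the 6 lists passed.

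The makeup of the family was described as each gene's share of the summed FPKM of all 7. In kidney the sum averaged 50.1 FPKM for i4F, 50.1 for i4F Ink4a/Arf KO and 49.7 for i4F p53 KO. Cdkn1b gave 30.4, 31.8 and 28.7% of it, taking the groups in that order, Cdkn1c 27.9, 16.9 and 23.7%, and Cdkn2b 2.22, 5.93 and 1.3%. In pancreas Cdkn1a gave the largest share of the sum: 61.5 ± 8.96% in the libraries labelled p53 KO, 56.6 ± 25.3% in i4F and 76.5 ± 4.48% with Ink4a/Arf deleted (SD, n = 5). In the same order, Cdkn2b gave 7.4, 1.12 and 1.46%, and Cdkn2a 4.42, 0.223 and 0.0921%. These shares are the same on deposited and scaled values, since all 7 genes of a library are divided by the same factor. The 4 INK4 members together gave 20.5 to 34.6% in the libraries labelled p53 KO, 6.93 to 15.3% with Ink4a/Arf deleted and 2.98 to 25.5% in i4F. The first range is clear of the second and overlaps the third.

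Libraries were also split by Xist, a transcript of the inactive X chromosome, at 1 FPKM. In i4F kidney Cdkn1a was 10.4 to 16.3 FPKM in the 2 libraries above that level and 3.11 to 3.8 in the other 3. In i4F Ink4a/Arf KO kidney the 1 library above it had 22 FPKM and the others 4.63 to 9.03. The kidney i4F p53 KO libraries all lay below the Xist level and still ran from 2.49 to 12.1 FPKM. In i4F pancreas Cdkn1a was 8.1 to 35.9 FPKM in the 3 libraries above the level and 2.18 to 2.34 in the other 2. In i4F Ink4a/Arf KO pancreas the 1 library above the level had 18.1 FPKM, inside the 9.51 to 23.1 of the other 4. Cdkn1c followed the same split in i4F kidney, at 16.7 to 20.7 FPKM against 8.37 to 13.1. With the libraries above the Xist level left out, the kidney Cdkn1a difference was 0.65 in i4F p53 KO (adjusted p = 0.4) and 0.8 in i4F Ink4a/Arf KO (adjusted p = 0.967). The pancreas Cdkn1a difference of i4F Ink4a/Arf KO from i4F was then 2.38 (adjusted p = 0.489), and in the libraries labelled p53 KO 5 of 6 members were called against i4F, without Cdkn1c (0.98, adjusted p = 0.0586), where 91.3% of all genes passed as higher.

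Genes with the most similar pattern were found by Pearson's r over 15 libraries of scaled values with the group means removed, given as a description with no test, among 12430 other genes in kidney and 10780 in pancreas. In kidney Cdkn1a ran closest to Ppapdc1b (r = 0.97) and Ephb6 (0.967). Cdkn1c ran closest to Ptpro (0.931), a phosphatase of glomerular podocytes, Cdkn2b to 5430407P10Rik (0.935) and Ptpn14 (0.911), and Cdkn2d to the keratin gene Krt19 (0.873). Cdkn1b and Cdkn2c had looser matches, Mtx3 at 0.855 and Ppapdc3 at 0.818. In pancreas Cdkn2b ran closest to Spon1 (0.966), Rab31 (0.966) and the receptor kinase gene Axl (0.961). Cdkn1b ran closest to Rasa1 (0.927), Cdkn1a to Zdhhc13 (0.896) and Krt20 (0.889), Cdkn2c to Tceb3 (0.879), Cdkn1c to Hmgb3 (0.863) and Cdkn2d to Stradb (0.841). The points share libraries and scaling factors, and the closest of so many genes will have a high r in any case.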

How the data were processed

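The authors deposited 1 table of FPKM per tissue, with 15 libraries each. Per the submitters' processing notes, which give no roles, the tools included Cufflinks 2.2.1, TopHat2 2.0.10 and Bowtie 1.0.0, and the build was mm10. No read counts were used, and the depth behind a gene is unknown. Groups follow the labelled tissue and genotype.

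Values were analysed as log2(FPKM + 1), which understates changes of low genes, with limma 3.58.1 in R 4.3.3 (eBayes with a trend, all 15 libraries of a tissue). Genes at 1 FPKM or more in at least 5 libraries were tested, two-sided, with Benjamini-Hochberg adjustment over all of them and a threshold of 0.05. Scaling used 12304 kidney and 10451 pancreas genes. Tables were normalized separately, so levels were not tested between tissues. Cdkn2a was tested by exact permutation. The limma fit was tested on simulated data with independent noise, no shift in library makeup and no scaling. That test therefore does not bear on the scaled pancreas results.

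The 7 genes, the gene lists and the tests were chosen with earlier results of these data known. Of each gene list up to 4 called members with the smallest p could be named per comparison, and of genes similar to a member the closest 3. The text gives a part of them. Alternatives were another pseudocount (0.1), other filters (none, 5 FPKM), scaling, a replicate block, Xist, and leaving out libraries.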

Additional observations from a re-analysis of the deposited data

Results flagged for a closer look

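Within groups of 5 libraries, 7 of 42 gene and group combinations held a library far from the other 4. A rate of about 1 in 20 would apply to independent values with a normal spread. FPKM at or near 0 need not spread so, and the same library can be flagged for several genes. The count is therefore not set against that rate. In i4F Ink4a/Arf KO kidney, replicate 1 had 22 FPKM of Cdkn1a (next 9.03) and 13.3 FPKM of Cdkn1c (next 8.03), and it is the 1 library of that group above 1 FPKM of Xist. In i4F kidney, replicate 4 had 8.27 FPKM of Cdkn2d (next 5.53). In i4F pancreas, replicate 4 had the highest Cdkn2a (0.318 FPKM, next 0.0684), Cdkn2b (0.897, next 0.238) and Cdkn2c (3.55, next 1.25). In i4F Ink4a/Arf KO pancreas, replicate 2 had 0.112 FPKM of Cdkn2a and the other 4 were listed at 0.

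The difference that goes with the p53 KO label was larger in pancreas than in kidney by the interaction test in limma. On the deposited values the log2 difference was 2.71 for Cdkn1a, 1.55 for Cdkn1b, 1.3 for Cdkn1c, 3.18 for Cdkn2b, 1.18 for Cdkn2c and 2.34 for Cdkn2d. Of all genes tested 90.7% passed in that direction, and the median of all genes was 1.55. After scaling it was 1.94 for Cdkn2b and 0.83 for Cdkn2d, the other 4 members did not pass, and 23.0% of all genes did. In pancreas Cdkn2b passed the filter through the libraries labelled p53 KO alone. Cdkn1c, Cdkn2c and Cdkn2d passed it only with the help of those libraries.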

How the results depend on the processing

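Of the values for single genes under other settings, 1214 kept their direction and their side of the threshold, 28 turned sign with no call on either side, 12 lost the call, 1 gained it and 12 turned sign with a call. Scaling left 2 called members of 6 in pancreas p53 KO against i4F, against i4F Ink4a/Arf KO and in the interaction. It turned Cdkn1b to -0.22 and Cdkn1c to -0.18 against i4F, Cdkn1a to -0.18, Cdkn1b to -0.05 and Cdkn1c to -0.08 against i4F Ink4a/Arf KO, and the interaction to -0.13 for Cdkn1b and -0.2 for Cdkn2c. A filter of 5 FPKM left 1 called member in each of these 3, as fewer members were tested. In kidney i4F p53 KO against i4F Ink4a/Arf KO, leaving out 1 library gave 0 to 1 called members (1 without i4F Ink4a/Arf KO replicate 4). Leaving out any library labelled p53 KO put Cdkn2b below the filter. Scaled and with no filter, a setting chosen after the data had been seen, Cdkn2d was called in 15 of 15 such fits against i4F (0.99 to 1.25) and against i4F Ink4a/Arf KO (0.78 to 1.14), and Cdkn2b in 15 of 15 (1.36 to 1.83 and 1.13 to 1.58).

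Same-numbered libraries did not deviate together in every pair (at most 3 of 5 pairs with r over 0.1). With the replicate block 0 members were called in kidney and 6 in each pancreas comparison with the libraries labelled p53 KO. With the block and scaling 2 were called. The 5 pancreas values of -0.22, -0.18, -0.18, -0.05 and -0.08 were the same. That was fixed in advance, since each genotype holds every replicate number once and the block cannot move a group difference. Calls over all genes in kidney i4F p53 KO were 32 against i4F and 33 against i4F Ink4a/Arf KO, 57 and 69 after scaling, 17 and 16 with the block, and 276 and 856 without the 4 libraries above 100 FPKM of Clps.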

Other observations

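Libraries differed in how much of the induced factor Pou5f1 they held, and its relation to the CDK inhibitors was computed on scaled log2 values, a step added after the data had been seen, with 12 relations in the family. In the 15 kidney libraries Cdkn2d went with Pou5f1 (Pearson's r = 0.718, permutation p = 0.00302, adjusted 0.0362; Spearman's rho = 0.751, permutation p = 0.00177, adjusted 0.0212). Without the 2 libraries farthest from the median Pou5f1 level r was 0.768, with group means removed it was 0.62, and among the 12 libraries below 1 FPKM of Xist it was 0.735. With group means removed, kidney Cdkn1a and Cdkn2b had an r of 0.616 and 0.614, close to that of Cdkn2d. The permutations moved libraries across genotypes, and the values with group means removed were not tested. Cdkn1b had an r of -0.561 (adjusted p = 0.17), which was -0.36 without the 2 farthest libraries. None of the other 10 relations passed after adjustment. Those in pancreas used the 10 libraries of i4F and i4F Ink4a/Arf KO, and the libraries labelled p53 KO were left out.

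In the pancreas, scaled Pou5f1, Sox2, Klf4 and Myc were higher in the libraries labelled p53 KO than in i4F by log2 differences of 3.48, 2.44, 1.83 and 1.29. Scaled lymphocyte markers summed to 14.3 FPKM in replicate 1 of that group and to 0.757 or less in the other 4 libraries. They ran from 0.495 to 59.7 in i4F and from 0.575 to 6.98 in i4F Ink4a/Arf KO, so high sums were not particular to that group.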
